A study of Mus musculus with 12 samples.

Results

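The 10 visual cycle genes described here are Abca4, Rdh12, Rdh8, Rbp3, Rlbp1, Rgr, Rpe65, Lrat, Rdh5 and Stra6, chosen by symbol among the 56748 genes of the deposited table, and each symbol matched 1 row. They were read in all 12 libraries to set the steps made in photoreceptors beside the steps made in the retinal pigment epithelium (RPE) and Müller glia. The libraries come from 2-week-old littermate mice and hold 3 replicates of each of 4 groups: rods and whole retina, each from Het and KO mice. Het mice are RiboTag;Shp2fl/+;i75-Rod-Cre and KO mice are RiboTag;Shp2fl/fl;i75-Rod-Cre, so both genotypes carried Cre and, by the study's description, 2 RiboTag alleles, and the Het controls carried 1 floxed Shp2 allele although their titles say wt. Cre was driven by a promoter active in rods. RiboTag puts an HA tag on the ribosomal protein Rpl22 wherever Cre is active, and immunoprecipitation of the tagged ribosomes (translating ribosome affinity purification, TRAP) gives the mRNA under translation in rods. The whole-retina libraries were made from the RNA before TRAP.

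Vision begins when light isomerises the retinal bound to an opsin, and the visual cycle restores the chromophore. In photoreceptors the released all-trans-retinal is flipped across the disc membrane by ABCA4 and reduced to retinol by dehydrogenases such as RDH8 and RDH12, and IRBP, the product of Rbp3, carries retinoids through the space between photoreceptors and RPE. In the RPE, LRAT makes retinyl esters, RPE65 isomerises them, RDH5 oxidises the product and STRA6 takes up retinol from the blood. CRALBP, encoded by Rlbp1, binds the cis retinoids in RPE and Müller glia, and RGR is an opsin of the same cells.

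The deposited values are not raw reads: each library was multiplied by 1 factor and rounded, so that totals lay between 14525527 and 14527992 in retina and between 16263948 and 16265259 in rods. Estimated depths ran from 9980000 to 19230000 reads in retina and from 11890000 to 25280000 in rods, and 3 reads correspond to a value of 2.27 to 4.37 in retina and 1.93 to 4.1 in rods. Ptpn11, which encodes Shp2, was listed at 2431 to 2511 in Het rods and 1735 to 2139 in KO rods, and its difference did not pass the test (log2 fold change -0.26, SE 0.09, limma adjusted p = 0.064). The value is for the whole gene, not for its floxed part. All 10 rod markers, such as Gnat1, rose in rods of both genotypes against retina, and all 10 Müller glia markers, such as Glul, fell. The 10 cone markers fell in Het rods and 9 of them in KO rods, and of 9 lens markers tested 0 passed in Het and 6 fell in KO rods. The 10 lens markers summed to 140 in Het retina replicate 1 and to between 65244 and 758269 in the other 5 retina libraries, and the part of this difference in any result was not tested. The labels do not say that the libraries came from separate mice, so p-values measure the spread between these libraries, and in bulk RNA fewer cells of a type cannot be told apart from less RNA per cell.

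Per kilobase of transcript, the level of Rbp3 was the highest of the 10 genes in every group. In Het retina the TMM-scaled level per kilobase was 11390 ± 2187 (SD, n = 3) for Rbp3, 3735 ± 208.1 for Rdh12, 2639 ± 333.4 for Abca4 and 2055 ± 199.1 for Rlbp1, and the libraries of the last pair overlapped. Rdh8 followed at 579.7 ± 161.8, and Rgr, Rpe65, Rdh5, Stra6 and Lrat lay between 116.2 ± 35.22 and 14.13 ± 8.84. In Het rods the order of the leading genes was Rbp3 (41880 ± 3810), Rdh12 (14550 ± 811.6), Abca4 (7326 ± 354.4) and Rdh8 (1595 ± 67.28), with no overlap between neighbours. Rlbp1 came next in Het rods at 77.92 ± 13.53, and the remaining 5 genes lay between 18.91 ± 9.58 (Rgr) and 1.38 ± 0.46 (Lrat). The order of the first 5 was the same in KO rods, where Rbp3 reached 49450 ± 103.8 and Rdh8 2032 ± 291.5. Neighbours among Rgr, Rdh5, Rpe65, Stra6 and Lrat overlapped in KO rods.

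**Figure D1:**
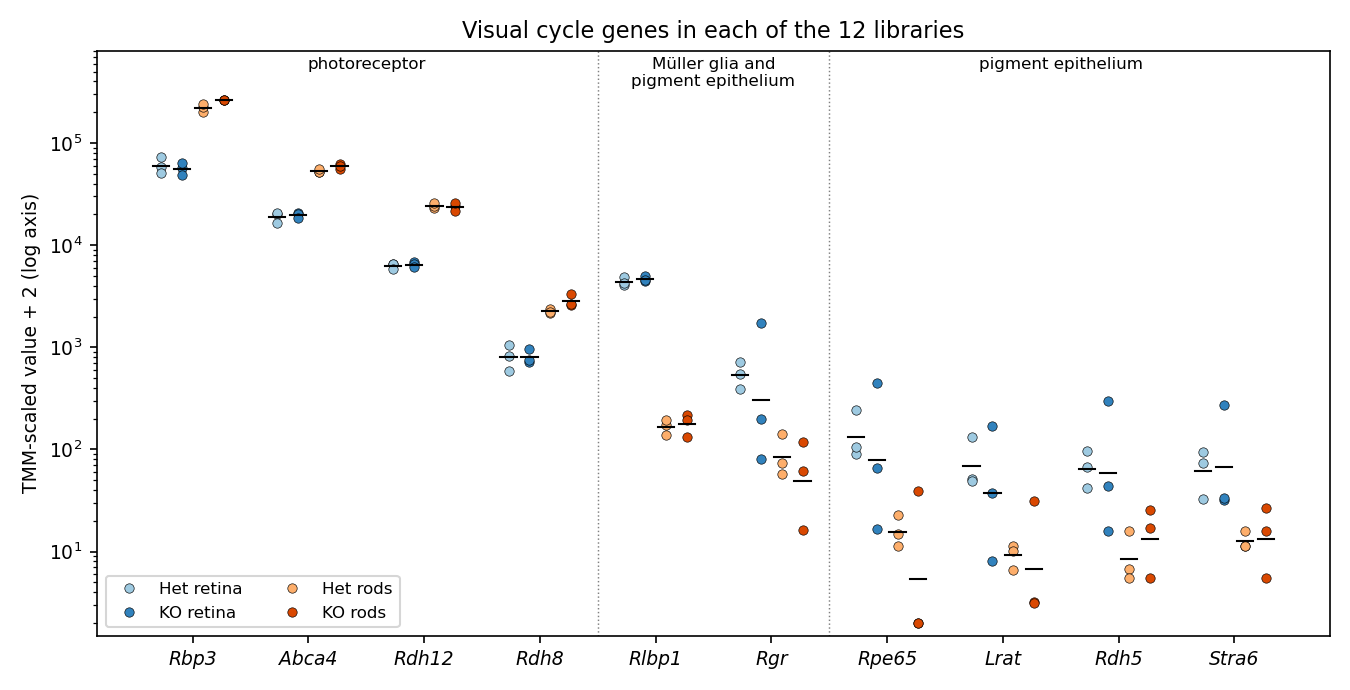
TMM-scaled value plus 2 (log axis) of the 10 visual cycle genes, with 1 point for each of the 12 libraries and a bar at the mean of the log values of each group. Photoreceptor genes lie higher in rods (orange) than in retina (blue), Rlbp1 lies lower in rods, and the pigment epithelium genes spread widely between libraries.

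The sequence before the start of each gene was read from RefSeq (build GRCm38.p6), where 13 windows of 250 bases matched the 10 genes, 4 of them belonging to Stra6. The letters TAATCC, the core bound by OTX2 in the RPE and by CRX in photoreceptors, were found on either strand in 6.25% of 32851 such windows and in those of Abca4, Rbp3, Rpe65 and Rgr. These 4 windows are printed 5′ to 3′ on the strand of the gene, with the core or its reverse complement GGATTA in capitals, because they belong to genes found on opposite sides of the rod to retina comparison. The first base of the core lies 58 bases before the start of Abca4, 69 before Rbp3, 42 before Rpe65 and 167 before Rgr. Bases just past the start of Rgr in RefSeq were found in no GENCODE M21 transcript of the gene, so its window and distance are uncertain. For the other genes such bases were found in a transcript, and whether the starts themselves agree was not tested. The windows are chr3:122044210-122044459 (+) for Abca4, chr14:33953753-33954002 (+) for Rbp3, chr3:159598931-159599180 (+) for Rpe65 and chr14:37049015-37049264 (-) for Rgr.
Abca4: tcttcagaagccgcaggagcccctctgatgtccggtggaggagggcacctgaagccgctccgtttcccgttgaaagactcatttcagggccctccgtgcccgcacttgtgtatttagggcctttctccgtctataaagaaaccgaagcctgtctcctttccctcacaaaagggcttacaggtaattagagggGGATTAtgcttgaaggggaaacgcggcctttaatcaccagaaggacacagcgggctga
Rbp3: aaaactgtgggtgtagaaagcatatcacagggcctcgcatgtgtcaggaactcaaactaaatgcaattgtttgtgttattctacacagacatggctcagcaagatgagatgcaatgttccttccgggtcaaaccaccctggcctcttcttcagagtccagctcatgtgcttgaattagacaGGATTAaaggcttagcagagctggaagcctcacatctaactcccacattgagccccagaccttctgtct
Rpe65: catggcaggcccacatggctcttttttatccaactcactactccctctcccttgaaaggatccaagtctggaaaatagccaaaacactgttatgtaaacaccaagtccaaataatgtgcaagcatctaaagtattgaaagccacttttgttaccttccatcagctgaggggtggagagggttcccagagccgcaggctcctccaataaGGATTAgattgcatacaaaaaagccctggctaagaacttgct
Rgr: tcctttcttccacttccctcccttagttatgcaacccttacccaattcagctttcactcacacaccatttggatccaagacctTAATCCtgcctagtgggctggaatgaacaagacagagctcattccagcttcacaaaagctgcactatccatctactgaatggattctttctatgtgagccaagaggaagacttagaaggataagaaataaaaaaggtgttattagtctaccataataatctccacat
A further 3 motifs were read on both strands. The MAF and NRL motif TGCTGA occurred in 16.1% of all windows and in those of Rbp3, Rdh12, Rlbp1 and Stra6. The M-box TCATGTG occurred in 3.25% and before Rbp3, and the E-box CACGTG in 6.02% and before no member. No match overlapped another, and a match is a run of letters, not a measured binding site.

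In Het mice all 10 genes passed the test between rods and retina, and the groups of 3 libraries did not overlap for any of them. The 4 photoreceptor genes rose in rods, where 21.6% of the 16110 genes tested were called higher, and the 6 genes of RPE and Müller glia fell, where 36.8% were called lower and the groups of 71.6% did not overlap. In both genotypes Rpe65, Lrat, Rdh5 and Stra6 reached the filter value of about 10 in fewer than 3 rod libraries. They were tested only through their retina values, so the filter favoured a call of lower for these 4 genes. Calls needed an adjusted p under 0.05 together with a log2 fold change beyond 0.5 in size. The median log2 fold change was 1.52 for the 4 photoreceptor genes, -3.08 for the 4 RPE genes and -0.11 for all genes tested, beside 1.82 for 10 rod markers and -1.05 for 10 cone markers. Scaling by library size in place of TMM shifted the median of all genes by -0.41 and the share of calls that were higher from 37% to 13.6%, and the 10 calls held. They also held in 1 limma fit of all 12 libraries, but nearer the threshold for Rpe65 (adjusted p = 0.044), Rgr (0.04), Lrat (0.023), Stra6 (0.018) and Rdh5 (0.0099).

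Abca4 (ENSMUSG00000028125, chromosome 3 in GRCm38), the disc membrane flippase, was listed at 23645, 24011 and 18504 in Het retina replicates 1 to 3 and at 44036, 44897 and 48128 in Het rods. Each rod library exceeded each retina library, and the log2 fold change was 1.31 (SE 0.13, adjusted p = 2.8e-05). Rbp3 (ENSMUSG00000041534, chromosome 14), whose product is the interphotoreceptor carrier, gave 67127, 84176 and 56822 in Het retina and 171897, 192825 and 206486 in Het rods. It rose by 1.72 on the log2 scale (SE 0.16, adjusted p = 2.4e-05).

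Rdh12 (ENSMUSG00000021123, chromosome 12), a retinal reductase of the inner segment, was at 7530, 7471 and 6623 in Het retina and at 19818, 20902 and 22151 in Het rods. Its rise of 1.79 (SE 0.11, adjusted p = 2.2e-06) was the largest of the 4 in Het mice. Rdh8 (ENSMUSG00000053773, chromosome 9), the reductase of the outer segment, was at 956, 1198 and 660 in Het retina and at 1856, 2025 and 1893 in Het rods, and rose by 1.33 (SE 0.20, adjusted p = 0.00046). Together the 4 genes held 0.569% to 0.804% of the total in Het retina and 1.46% to 1.71% in Het rods.

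Rlbp1 (ENSMUSG00000039194, chromosome 7), the CRALBP gene of Müller glia and RPE, had the largest fall. It was listed at 4737, 5628 and 4810 in Het retina and at 116, 149 and 165 in Het rods, a log2 fold change of -4.88 (SE 0.17, adjusted p = 2.5e-07), or 29.5-fold lower. The 10 Müller glia markers had a median of -4.87 in the same comparison, and Glul among them -4.29. Rgr (ENSMUSG00000021804, chromosome 14), the opsin of the same cells, was at 448, 623 and 808 in Het retina and 47, 62 and 120 in Het rods, and fell by 2.83 on the log2 scale (SE 0.36, adjusted p = 0.00016).

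Rpe65 (ENSMUSG00000028174, chromosome 3), the retinoid isomerase, was listed at 102, 119 and 272 in Het retina and at 8, 11 and 18 in Het rods, 9.36-fold lower (log2 fold change -3.23, SE 0.43, adjusted p = 0.00021). Lrat (ENSMUSG00000028003, chromosome 3), the ester synthase, was at 58, 54 and 147 in Het retina and 8, 4 and 7 in Het rods (log2 fold change -3.07, SE 0.44, adjusted p = 0.00029). All 3 rod values of Lrat were below its lowest retina value, and without any 1 of the Het retina libraries Lrat no longer met the filter of about 10 in 3 libraries, which left 9 of 9 genes called. Rdh5 (ENSMUSG00000025350, chromosome 10), the RPE oxidase, was at 47, 108 and 73 in Het retina and 4, 3 and 12 in Het rods (log2 fold change -3.09, SE 0.48, adjusted p = 0.00051). Stra6 (ENSMUSG00000032327, chromosome 9), the retinol receptor, was at 36, 83 and 105 in Het retina and 8, 8 and 12 in Het rods (log2 fold change -2.42, SE 0.42, adjusted p = 0.0011). Both fell in rods with no overlap of the groups. Of the 11 RPE markers 9 were tested, of which 8 fell and Krt18, named after its value was seen, rose by 1.26 (SE 0.20, adjusted p = 0.00061). Of 10 tested in KO mice 4 fell and Krt18 rose. Over all genes tested 36.8% were called lower in Het and 36.4% in KO mice, and 21.6% and 25.8% were called higher. In both genotypes some of these markers met the filter only through their retina values, which favoured a call of lower. The 11 markers summed to 2543 to 11367 in Het retina and to 1277 to 1479 in Het rods, and without Krt18, left out after its value was seen, to 1767 to 10928 and to 118 to 277.

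Some rows share their place with other genes in the GENCODE annotation of GRCm38. Rdh5 overlaps Bloc1s1 on the same strand, which was listed at 20 to 57 in Het retina and 24 to 28 in Het rods, so low values of Rdh5 are uncertain. Stra6 overlaps Ccdc33 on the other strand, which was listed at 0 to 8 over all libraries, and the strand of counting is not given in the sources used here.

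**Figure D2:**
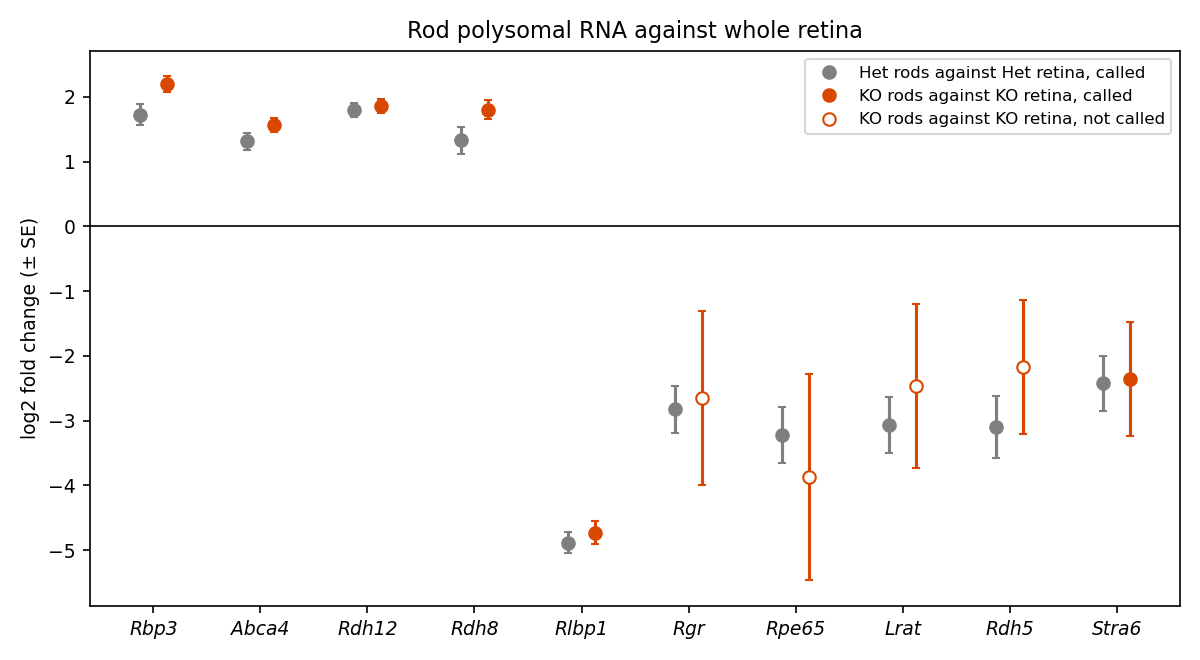
Log2 fold change of rods against whole retina for the 10 genes in Het (grey) and KO mice (orange), with bars of 1 SE and 3 libraries in each group. Filled points passed the test and open points did not; the 4 photoreceptor genes lie above 0 in both genotypes, and the open points are Rgr, Rpe65, Lrat and Rdh5 in KO mice.

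In KO mice, compared in 6 libraries that the Het comparison did not use, 6 of the 10 genes passed the test between rods and retina. All 4 photoreceptor genes rose (25.8% of 16121 genes tested were called higher), and Rlbp1 and Stra6 fell (36.4% were called lower). Rgr, Rpe65, Lrat and Rdh5 did not pass, and their rod and retina libraries overlapped, whereas the groups of 72.5% of genes tested did not. With the replicate number as a block, all 10 genes were called. Whether the KO numbers pair the rod and retina libraries is not given in the sources used here. The median was 1.83 for the 4 photoreceptor genes, -2.41 for the 4 RPE genes and -0.02 for all genes tested. Library size scaling shifted the median of all genes by -0.53 and the share of calls that were higher from 41.5% to 12.7%, with the same count of 6.

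Rbp3 was listed at 66648, 55931 and 69036 in KO retina and at 222147, 229568 and 224293 in KO rods, a log2 fold change of 2.20 (SE 0.12, adjusted p = 1.7e-06). Abca4 was at 23820, 22931 and 19908 in KO retina and 52270, 49201 and 51001 in KO rods (log2 fold change 1.57, SE 0.11, adjusted p = 4.1e-06). Both rose with rod and retina libraries well apart. Rdh12 was at 7902, 7402 and 6649 in KO retina and 20582, 18803 and 22034 in KO rods, and rose by 1.86 (SE 0.11, adjusted p = 2.5e-06). Rdh8 was at 841, 849 and 1036 in KO retina and 2216, 2912 and 2254 in KO rods, and rose 3.49-fold (SE 0.15 on the log2 scale, adjusted p = 1.3e-05). Rlbp1 fell from 5775, 5068 and 4927 in KO retina to 181, 114 and 166 in KO rods (log2 fold change -4.73, SE 0.18, adjusted p = 4.5e-07). As in Het mice, its KO retina libraries lay close together.

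The RPE genes differed widely among the 3 KO retina libraries. Rpe65 was listed at 17, 72 and 485 in KO retina replicates 1 to 3 and at 0, 0 and 32 in KO rods (log2 fold change -3.87, SE 1.59, adjusted p = 0.07). Rgr was at 92, 225 and 1874 in KO retina and 12, 52 and 100 in KO rods (log2 fold change -2.65, SE 1.34, adjusted p = 0.13). In both genes KO retina replicate 3 was the highest library and the other KO retina libraries were below all 3 Het retina libraries. Lrat was at 7, 40 and 184 in KO retina and 1, 1 and 25 in KO rods (log2 fold change -2.46, SE 1.27, adjusted p = 0.12). Rdh5 was at 16, 48 and 322 in KO retina and 3, 13 and 20 in KO rods (log2 fold change -2.17, SE 1.03, adjusted p = 0.097). For each, only the lowest retina library lay within the range of the rods. Stra6 was at 35, 36 and 296 in KO retina and 3, 12 and 21 in KO rods (log2 fold change -2.35, SE 0.88, adjusted p = 0.042).

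The calls of these genes in KO mice turned on single libraries and on the fit. In 1 fit of all 12 libraries Rgr (adjusted p = 0.044), Rpe65 (adjusted p = 0.017) and Rdh5 (adjusted p = 0.046) passed as well. Stra6 no longer passed without KO retina replicate 2 (log2 fold change -2.99, adjusted p = 0.056), KO retina replicate 3 (-1.49, adjusted p = 0.061), KO rods replicate 1 (-1.72, adjusted p = 0.16) or KO rods replicate 2 (-2.48, adjusted p = 0.082). Without KO retina replicate 1, Rpe65 (log2 fold change -5.08, adjusted p = 0.028), Lrat (-3.68, adjusted p = 0.027) and Rdh5 (-3.26, adjusted p = 0.022) passed. Rpe65 also passed without KO rods replicate 3 (log2 fold change -5.33, adjusted p = 0.0063).

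Over the 6 retina libraries of both genotypes, the TMM-scaled level of Rpe65 spanned a 30.6-fold range, that of Lrat 28.2-fold, Rgr 21.8-fold, Rdh5 21.6-fold and Stra6 9.06-fold. The lowest library was KO retina replicate 1 and the highest KO retina replicate 3 for all 5. Over the same libraries Abca4 spanned 1.27-fold, Rdh12 1.16-fold, Rbp3 1.49-fold, Rdh8 1.78-fold and Rlbp1 1.22-fold. Of the 11 RPE markers 10 were also highest in KO retina replicate 3 by deposited value, and 6 were lowest in replicate 1. Best1, named like Mitf after its values were seen, was highest in KO retina replicate 2 and spanned 5 to 14, and Mitf spanned 87 to 179. The summed RPE markers were at 1584 in KO retina replicate 1 and 19842 in replicate 3 (908 and 18847 without Krt18), and the lens markers summed to 65244 and 758269 in the same libraries. Dct (6772), Pmel (4212) and Tyrp1 (3173) led the RPE sum in KO retina replicate 3, so the sum mostly follows these genes. In Het retina replicate 1, where the lens sum was 140, Rpe65 was at 102 and the RPE sum was 4037. In rods, KO replicate 3 held the highest sum of the RPE markers (2507, and 549 without Krt18) and of the lens markers (13630), and also the highest deposited Rpe65, Lrat, Rdh5 and Stra6. The replicate number with the highest value was the same in retina and rods for all 6 non-photoreceptor genes in KO mice and for 3 of 6 in Het mice. Lens markers summed to 65244, 157321 and 758269 in KO retina replicates 1 to 3. In KO rods replicates 1 to 3 the lens sums were 1883, 3810 and 13630. Het replicate 1 had the lowest lens sum of both fractions, at 140 in retina and 6 in rods. The part of RPE or lens RNA in these values was not tested.

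**Figure D3:**
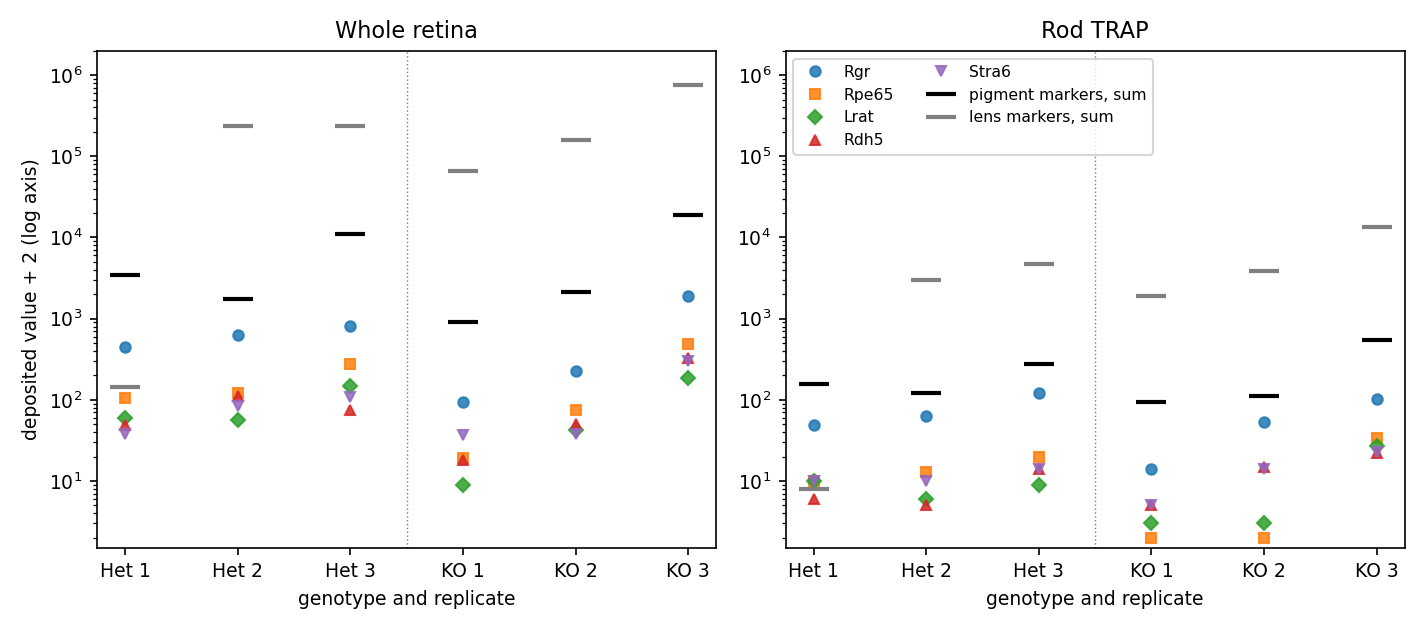
Deposited value plus 2 (log axis) of Rgr, Rpe65, Lrat, Rdh5 and Stra6 in the 6 retina libraries (left) and the 6 rod libraries (right), by genotype and replicate. Black bars are the sum of the RPE markers other than Krt18 and grey bars that of the lens markers; KO replicate 3 holds the highest RPE marker sum in both panels (18847 in retina, 549 in rods).

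The genotypes were then compared within rods, to ask whether loss of Shp2 changed the visual cycle genes translated there. None of the 9 genes tested was called, and Lrat did not meet the filter. In this comparison 13.1% of 13055 genes were called, 11.2% higher and 1.91% lower, and the groups of 46.9% did not overlap. The median log2 fold change was 0.28 for the 4 photoreceptor genes, 0.13 for the 3 RPE genes tested and -0.01 for all genes. At an unadjusted p under 0.05, 38.3% of all genes passed, Abca4, Rdh8 and Rbp3 among them. Library size scaling moved the share of calls that were higher from 85.4% to 67.3%.

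Rbp3 (log2 fold change 0.33, SE 0.08, adjusted p = 0.013), Abca4 (0.24, SE 0.07, adjusted p = 0.027) and Rdh8 (0.43, SE 0.12, adjusted p = 0.024) had an adjusted p below 0.05 but did not reach the fold limit, and for each the 3 KO rod libraries lay above the 3 Het rod libraries. Rdh8 crossed the fold limit without KO rods replicate 1 (0.50, adjusted p = 0.031) or replicate 3 (0.51, adjusted p = 0.014), and stood at 0.27 (adjusted p = 0.055) without KO rods replicate 2. Rdh12 gave 0.05 (SE 0.07, adjusted p = 0.67), with overlapping groups.

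GC content moved with genotype in the rod libraries. The 10% of genes with the highest transcript GC content, less the 10% with the lowest, differed in their median log2 value by 0.28 to 0.76 in the 3 KO rod libraries and by -0.81 to -0.23 in the 3 Het rod libraries, each gene relative to its mean over the 6 libraries. GC content was 56.3% for Rdh8, 55.7% for Rbp3, 52.1% for Abca4 and 49.8% for Rdh12. With the GC trend of each library removed, the log2 fold change was -0.03 for Rdh8 (adjusted p = 0.85), -0.08 for Rbp3 (adjusted p = 0.44) and 0.11 for Abca4 (adjusted p = 0.25). In 1 fit of all 12 libraries the 3 values were 0.37 (adjusted p = 0.24), 0.27 (adjusted p = 0.25) and 0.18 (adjusted p = 0.29).

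The other 5 genes tested did not pass in rods. Rlbp1 differed by 0.17 (SE 0.19, adjusted p = 0.55), Rgr by -0.69 (SE 0.86, adjusted p = 0.60), Rdh5 by 0.72 (SE 0.59, adjusted p = 0.40) and Stra6 by 0.13 (SE 0.52, adjusted p = 0.87). Rpe65 was at 8 to 18 in Het rods, at 0 in 2 of 3 KO rod libraries and at 32 in the other (log2 fold change -1.39, SE 1.14, adjusted p = 0.42).

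In whole retina none of the 10 genes was called between KO and Het, and limma called 0% of 16863 genes, with 140 genes (0.83%) at an unadjusted p under 0.05. The 10 genes were not among these, and their groups overlapped. The log2 fold change lay between -0.10 and 0.03 for the 4 photoreceptor genes, with SE of 0.12 to 0.23, and was 0.06 (SE 0.14) for Rlbp1. It was -0.94 for Lrat (SE 1.01), -0.83 for Rgr (SE 1.05) and -0.77 for Rpe65 (SE 1.07), and each of these errors exceeded the difference. A test of whether the rod to retina difference itself differed between genotypes, over all 12 libraries, passed for none of the 10 genes, and 0% of 17192 genes were called and 601 (3.5%) had an unadjusted p under 0.05. The largest interaction among photoreceptor genes was 0.33 for both Rdh8 (SE 0.26) and Rbp3 (SE 0.20), with adjusted p = 0.80 for each.

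**Figure D4:**
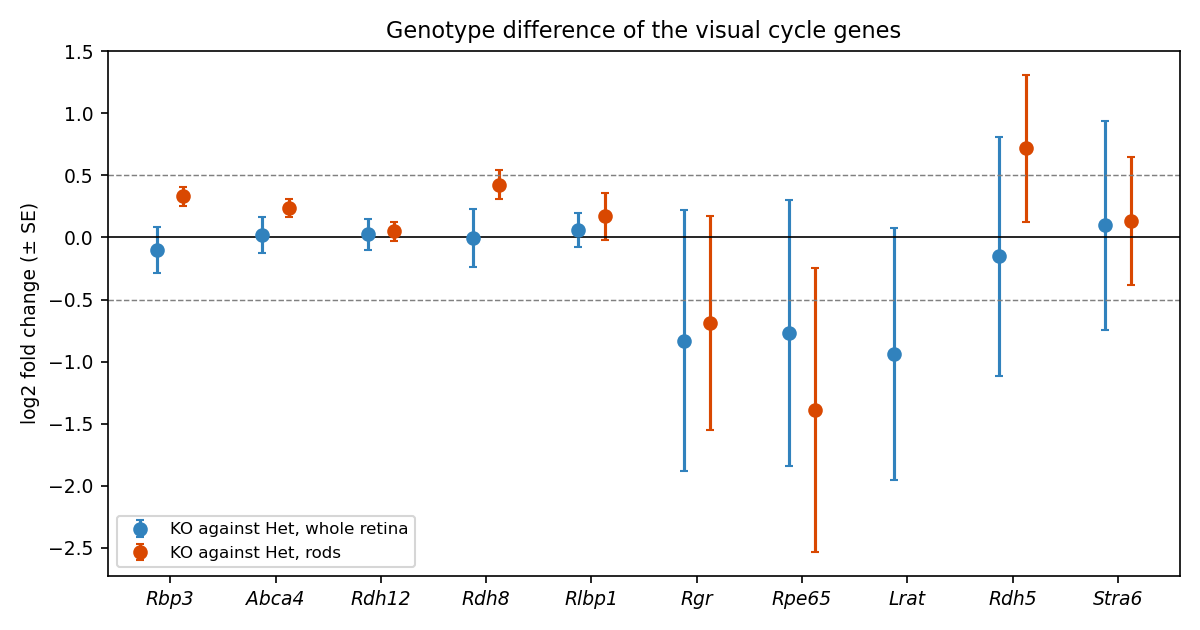
Log2 fold change of KO against Het in whole retina (blue) and rods (orange) for the visual cycle genes, with bars of 1 SE, 3 libraries in each group, and dashed lines at the fold limit of 0.5. Rbp3, Abca4 and Rdh8 in rods lie above 0 and below the upper line, and the bars of Rgr, Rpe65, Lrat and Rdh5 are the widest; Lrat was not tested in rods.

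Other genes of retinoid metabolism, a list of 26, were read in the same comparison of fractions. In Het mice 19 were tested, of which 4 rose in rods, 9 fell and 6 did not pass, with a median of -0.67 (-0.67 with the gene at 0 in all rods set at its bound of 3 reads) beside -0.11 for all genes. Over all genes tested 21.6% were called higher and 36.8% lower in Het mice. Among the genes that fell, Crabp1, Aldh1a2, Aldh1a3 and Cyp26b1 were at 2 or less in every Het rod library. They met the filter only through their retina values, so a call could only be lower. In KO mice 20 were tested, of which 6 rose, 10 fell and 4 did not pass, with a median of -0.62 (-0.62 with such a gene at its bound), where 25.8% of all genes were called higher and 36.4% lower. Among those that fell, Crabp1, Crabp2, Aldh1a3, Cyp26a1 and Cyp26b1 were at 3 or less in every KO rod library. Bco2 was at 7 to 10 there. These genes too met the filter only through retina, so the direction of their calls was set in advance. Without 1 of the retina libraries the filter left 14 genes tested, and 7 (without replicate 1 or 2) or 8 (without replicate 3) were called in Het mice, and 8 or 9 likewise in KO mice. With library size scaling 3 rose and 11 fell in Het mice, and 2 rose and 13 fell in KO mice.

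Among the dehydrogenases, Rdh11, Dhrs3 and Rdh13 rose in rods of both genotypes. Rdh11, a retinal reductase next to Rdh12 on the chromosome, was at 1267 to 1404 in Het retina and 2832 to 3096 in Het rods, and rose by 1.42 (SE 0.10, adjusted p = 5.7e-06) in Het and 1.40 (SE 0.12, adjusted p = 1.7e-05) in KO mice. Dhrs3, another retinal reductase, rose by 1.19 (SE 0.15, adjusted p = 0.00014) in Het and 1.59 (SE 0.13, adjusted p = 9.7e-06) in KO mice. Rdh13 rose by 0.55 and 0.67, and Rdh14 (0.45 in both genotypes) did not reach the fold limit. Rdh10, a retinol oxidase, fell by 0.67 in Het and 0.86 in KO mice.

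Aldh1a1, which makes retinoic acid, was at 628 to 2672 in Het retina and 14 to 34 in Het rods (log2 fold change -5.39, SE 0.52, adjusted p = 3e-05). Crabp1, a retinoic acid binding protein, was at 61 to 117 in Het retina and at 0 to 1 in Het rods (adjusted p = 4.7e-06). As it met the filter only through retina, the direction of this call was set in advance. Rrh, the opsin peropsin of the RPE, fell by 3.74 (SE 0.28, adjusted p = 6.6e-06) in Het and 3.69 (SE 0.23, adjusted p = 2.5e-06) in KO mice. Its retina values stayed between 271 and 334 in Het and between 277 and 322 in KO libraries, a narrower range than that of Rpe65. In KO retina Rpe65 ran from 17 to 485 and the summed RPE markers from 1584 to 19842, and which cells gave the Rrh values was not tested.

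**Figure D5:**
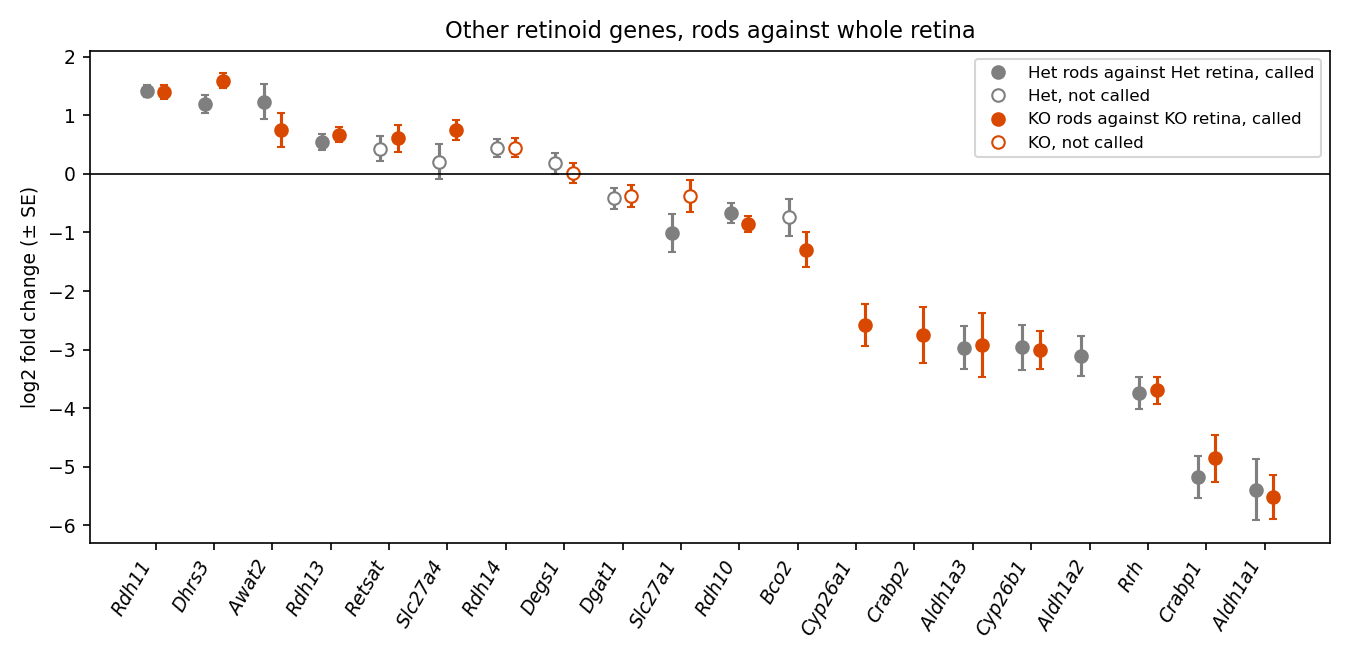
Log2 fold change of rods against whole retina for 20 other retinoid genes tested in at least 1 genotype, with bars of 1 SE, in Het (grey) and KO mice (orange), 3 libraries in each group. Filled points passed the test; Rdh11 and Dhrs3 lie highest and Aldh1a1 and Crabp1 lowest.

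Between KO and Het rods 14 of the list were tested, and the fatty acid transport proteins Slc27a1 (0.68, SE 0.18, adjusted p = 0.019) and Slc27a4 (0.68, SE 0.14, adjusted p = 0.0071) rose, in a comparison in which 13.1% of all genes were called. Slc27a4 was at 485 to 703 in Het rods and 822 to 990 in KO rods. Neither was called with the GC trend removed, where the count was 0, and 1 of the 2 was called without Het rods replicate 1, Het rods replicate 3, KO rods replicate 1 or KO rods replicate 2. Dhrs3 gave 0.31 (SE 0.09, adjusted p = 0.028), below the fold limit, and in whole retina 0 of 21 were called.

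The genes whose pattern over the 12 libraries was most like that of each visual cycle gene were found among 12134 genes with a mean TMM-scaled value of at least 50, as the smallest root mean square difference of centred log2 values. Egflam (0.10) was near Rbp3, and for Rdh12 the nearest gene was Gnb1 (0.05) followed by Nrl (0.08). Abca4 lay nearest to Gnb5 (0.06) and Gucy2e (0.07), and Rdh8 to Cngb1 (0.10) and Agpat3 (0.10). Rlbp1 lay nearest to Dclk2 (0.13) and Atp2b4 (0.13). Among the RPE genes the likeness was looser, and Rdh5 and Stra6 were each other's nearest (0.51), Rgr lay nearest to Ttr (0.61), Lrat to Col8a1 (0.65) and Rpe65 to Tspan10 (0.67).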

How the data were processed

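RNA was sequenced from 12 mouse libraries, grouped by the genotype and tissue in the labels, with replicate numbers from the titles, and 0 columns belonged to other samples. The deposited values are a signal proportional to read counts: the authors scaled each library by 1 factor and rounded, a step inferred from the values, whose factor was fixed in all but 1 library. The submitters' processing notes name CASAVA 1.8.2, HISAT2, DESeq2, edgeR and GRCm39, with no role given. The planned count model (edgeR) was not used because the values are scaled, and limma 3.58.1 in R 4.3.3 (trend and robust) was run on log2(TMM-scaled value + 2), two-sided, so fold changes are on that scale and understate those of low genes.

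Genes entered a fit with a value near 10, set at the median total, in 3 or more libraries and a sum of 15 or more. Only the compared groups entered a fit, p-values were adjusted over all genes tested (Benjamini-Hochberg), and the interaction used all 12 libraries. Calls needed an adjusted p under 0.05 and an absolute log2 fold change above 0.5 (interaction: adjusted p alone). With 3 against 3 libraries an exact permutation test gives no p below 0.1, so none was used for a single gene. The fits were tested on simulated data with a log2 change of 1. Of the changed genes 84.7% were recovered in Het rods against Het retina and 84.8% in KO against Het rods. Of the calls 5.1% and 4.77% were false. The simulation changed on average 196.4 of 16910 genes for Het rods against Het retina, and 195.4 of 13070 for KO against Het rods. In the deposited data 58.3% and 13.1% of genes tested were called in these comparisons. Recovery and false calls with so many changed genes were not tested. The simulation held no GC trend and no RPE or lens RNA that varied between libraries, so it does not cover those cases.

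Same-numbered Het rod and retina libraries deviated together (correlations 0.47, 0.41 and 0.25), and those of unlike number correlated at -0.36 to 0.01. Libraries that cannot be pairs also reached 0.53 (KO retina replicate 3 with Het retina replicate 2), so the correlations cannot settle pairing. Whether the numbers, taken from the titles, pair the libraries is not given in the sources used here. The main fits took no account of the replicate numbers. The members and lists were chosen with earlier results of these data known. Named were all members, genes of the other retinoid list, up to 4 leading genes of a marker list, genes that overlap or adjoin members, and the 2 genes nearest each member; 2 genes within this rule are not reported here. Lengths, GC content and chromosomes came from GENCODE M21 (GRCm38), which held 91.8% of identifiers, and no coordinate was taken from it. Floors of 3 reads cover counting error only. Alternatives were library size or RLE scaling, pseudocounts of 0.5 and 8, no filter, the replicate block, 1 fit of 12 libraries, removal of the GC trend, each library left out, and removal of rod-depleted genes. Figures used Python 3.11.15 and matplotlib.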

Additional observations from a re-analysis of the deposited data

How the results depend on the processing

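Of 774 alternative values of single genes, 749 kept their side of the threshold, 18 gained a call and 7 lost one, and no called value changed sign. Among the values that were not called, 62 changed sign. Without 1 library, the members called between rods and retina ranged from 9 to 10 in Het and from 5 to 9 in KO mice, those between KO and Het rods from 0 to 1, and the other retinoid genes from 7 to 13, 8 to 15 and 1 to 2 in these comparisons. With the replicate block, and with the GC trend removed together with the replicate block, all 10 members were called in KO mice in place of 6. Same-numbered KO rod and retina libraries correlated at 0.33, -0.01 and 0.18, so not every such pair deviated together (KO rods replicate 2 correlated best with KO retina replicate 3). Whether the KO numbers pair the libraries is not given in the sources used here. The same number was highest in both fractions for 6 of 6 non-photoreceptor members in KO mice and 3 of 6 in Het mice. In KO mice replicate 3 gave 5 of these matches and also held the highest RPE and lens marker sums, so the members do not count separately. The correlations were 0.18, 0.03 and 0.03 between KO and Het rods and 0.40, -0.59 and -0.14 between KO and Het retina. The block changed no other count of members, in Het mice included. Other retinoid genes called between KO and Het rods fell from 2 to 0 in 1 fit of 12 libraries and with the GC trend removed, with or without the replicate block, and to 1 with rod-depleted genes removed, which left 10 tested; the cause was not tested. In KO mice Rpe65 passed with a pseudocount of 0.5, Stra6 did not with a pseudocount of 8, without the filter or with the GC trend removed, and Rgr, Rpe65 and Rdh5 passed in 1 fit of 12 libraries. Depth limits Rpe65, Lrat, Rdh5 and Stra6 in rods, where values approach 3 reads.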
